A study of Mus musculus with 26 samples.

Results

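The genes described here are 10 genes that ERK signalling switches on and that mostly restrain it again: the Sprouty genes *Spry1*, *Spry2* and *Spry4*, the Sprouty-related *Spred1* and *Spred2*, the phosphatase genes *Dusp4*, *Dusp5* and *Dusp6*, and the transcription factor genes *Etv4* and *Etv5*. They were found by symbol among the 24409 genes of the deposited expression table, and all 10 were present. These genes were chosen with the values of this same table in view, so their differences between wild type (WT) and ZFP57 knockout (KO) ES cells are given as a description, without a p-value. Where a member is said to be past the threshold, this gives its place in a fit over all genes and is no independent evidence. ZFP57 is a KRAB zinc finger protein that keeps DNA methylation at imprinted regions, and the study asked what its loss does to transcription in ES cells. RNA was sequenced from 3 WT and 2 KO samples of C57BL/6J background, the KO cells coming from embryos homozygous for a targeted *Zfp57* allele with coding exons disrupted. All samples were male ES cells derived from embryos of embryonic day 2.5 and used within 15 passages. WT and KO cells alike were grown in N2B27 medium with LIF and with the inhibitors PD0325901, which blocks MEK, and CHIR99021, which blocks GSK3 (2i/LIF). The study took the RNA from the lines used for its ChIP-seq replicates, but the labels do not say which RNA samples are separate lines, so p-values measure only the spread between these samples, part of which may be technical.

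The ERK cascade carries signals from receptors such as those for FGF through RAS, RAF, MEK and ERK to the nucleus. Active ERK induces genes whose products dampen the same cascade. Sprouty and Spred proteins act upstream of ERK, between receptor and RAF, and the dual specificity phosphatases DUSP4, DUSP5 and DUSP6 remove the activating phosphates from ERK or related kinases. ETV4 and ETV5 are ETS factors of the PEA3 group through which FGF signals reach target genes. In mouse ES cells, ERK activity drives exit from the naive state, and the MEK inhibitor of the 2i medium is there to hold it low. All samples compared here therefore carried an inhibitor of the cascade that feeds these genes.

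Promoter sequences were read from RefSeq (GRCm38.p6, mm10), whose promoter table held 8 gene starts for 7 of the 10 genes: *Spry1*, *Spry2*, *Spred1*, *Spred2*, *Dusp5*, *Dusp6* and *Etv5*, the last with 2 starts. The 250 bases before the start are printed for the genes that the values below turn on and for those that hold a searched motif, 5′ to 3′ on the strand of the gene. The first pair, *Dusp6* (chr10:99262981-99263230, plus strand) and *Spred1* (chr2:117120821-117121070, plus strand), belongs to genes higher in KO cells and holds none of the motifs searched. *Spry2* (chr14:105896820-105897069, minus strand) holds TGCCGC, the hexanucleotide bound by ZFP57, and *Spred2* (chr11:19924192-19924441, plus strand) and *Dusp5* (chr19:53528895-53529144, plus strand) hold TGACGT, part of the cyclic AMP response element. Capitals mark the motif, which in *Spred2* and *Dusp5* reads on the other strand.
Dusp6: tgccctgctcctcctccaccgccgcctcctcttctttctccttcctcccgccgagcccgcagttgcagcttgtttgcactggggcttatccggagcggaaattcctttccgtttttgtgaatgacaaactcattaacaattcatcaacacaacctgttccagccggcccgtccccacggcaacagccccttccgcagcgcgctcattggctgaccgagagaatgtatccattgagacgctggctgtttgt
Spred1: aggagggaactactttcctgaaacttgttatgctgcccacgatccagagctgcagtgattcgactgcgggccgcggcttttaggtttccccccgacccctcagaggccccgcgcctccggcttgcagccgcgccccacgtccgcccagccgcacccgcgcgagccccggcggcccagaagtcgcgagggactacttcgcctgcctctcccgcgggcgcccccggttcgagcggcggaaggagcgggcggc
Spry2: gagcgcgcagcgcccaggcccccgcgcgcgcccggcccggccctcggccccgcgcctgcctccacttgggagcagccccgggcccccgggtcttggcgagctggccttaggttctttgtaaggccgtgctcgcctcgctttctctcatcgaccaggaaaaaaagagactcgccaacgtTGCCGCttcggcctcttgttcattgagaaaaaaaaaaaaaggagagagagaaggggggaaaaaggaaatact
Spred2: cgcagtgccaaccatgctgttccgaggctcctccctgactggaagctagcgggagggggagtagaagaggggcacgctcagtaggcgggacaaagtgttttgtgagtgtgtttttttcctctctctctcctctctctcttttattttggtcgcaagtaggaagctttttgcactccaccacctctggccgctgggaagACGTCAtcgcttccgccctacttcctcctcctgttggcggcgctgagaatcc
Dusp5: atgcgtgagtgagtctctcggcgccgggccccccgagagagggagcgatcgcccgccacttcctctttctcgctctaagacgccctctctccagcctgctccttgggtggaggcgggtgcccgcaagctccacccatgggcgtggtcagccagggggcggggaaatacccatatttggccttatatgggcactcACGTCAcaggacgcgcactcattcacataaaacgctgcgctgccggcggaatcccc

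The motif TGCCGC of *Spry2* began 72 bases before the start, and the TGACGT of *Dusp5* and *Spred2* lay 56 and 52 bases before it. Both strands were searched. All 32851 mouse promoters of the table were searched over the 250 bases before the start and a short stretch after it. Of these, 11.6% held TGCCGC and 7.51% held TGACGT. The core CCGGAAG, bound by ETS factors, was in 8.86% of all promoters and in none of these 8, over the same stretch. Within the 250 bases, the composition ranged from 56.0% G and C in *Spred2* to 71.2% at the first start of *Etv5*. There *Spred1* held 31 CpG dinucleotides against 12 in *Spred2*. A motif match is a description of the letters only.

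The expression values are FPKM, fragments scaled for gene length and library size, which the authors deposited with 2 decimals. The steps between the low values of short microRNA genes put 1 fragment on 1 kb at 0.0170 to 0.0197 FPKM, so that a gene of 1 kb at 1 FPKM rests on 50.9 to 58.8 fragments. The targeted gene separated the groups. *Zfp57* (chromosome 17, 37001163 to 37010729) had 75.9, 72.3 and 70.6 FPKM in WT cells against 19.0 and 21.6 FPKM in KO cells. Its log2 fold change was -1.84 ± 0.06 (SE, limma's adjusted p = 2.3e-04). This value is per gene and does not single out the disrupted exons. The pluripotency genes were high in all 5 libraries, *Pou5f1* between 159.0 and 209.6 FPKM, *Nanog* between 181.4 and 204.0 FPKM and *Sox2* between 78.2 and 85.2 FPKM. Of 14612 genes that averaged 0.1 FPKM or more, 6002 (41.1%) passed an adjusted p of 0.05 in limma, 2749 higher (18.8%) and 3253 lower (22.3%) in KO cells. The 1224 tested genes of chromosome 11 had a median log2 fold change of -0.47 with 825 of them lower, and *Etv4* and *Spred2* lie on this chromosome.

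All 10 genes exceeded 0.1 FPKM on average and entered the fit. Beside 41.1% of all tested genes, 7 of the 10 were past the threshold. In KO cells, *Spry1*, *Spry2*, *Spry4*, *Spred1*, *Dusp6* and *Etv4* (6 of 10, beside 18.8% of all tested genes) were past it as higher, *Spred2* (1 of 10, beside 22.3%) was past it as lower, and *Dusp4*, *Dusp5* and *Etv5* were not past it. Both KO libraries lay above all WT libraries for 7 of the 10 genes (30.3% of all tested genes). They lay below all WT libraries for 2 (33.1% of all tested genes), and neither held for *Dusp5*. The median log2 fold change of the 10 genes was 0.58, beside -0.01 over all genes tested. Nothing is read from these shares, since the genes were picked for their values in this contrast. In these bulk samples, fewer cells expressing a gene and less RNA per cell cannot be told apart.

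**Figure D1:**
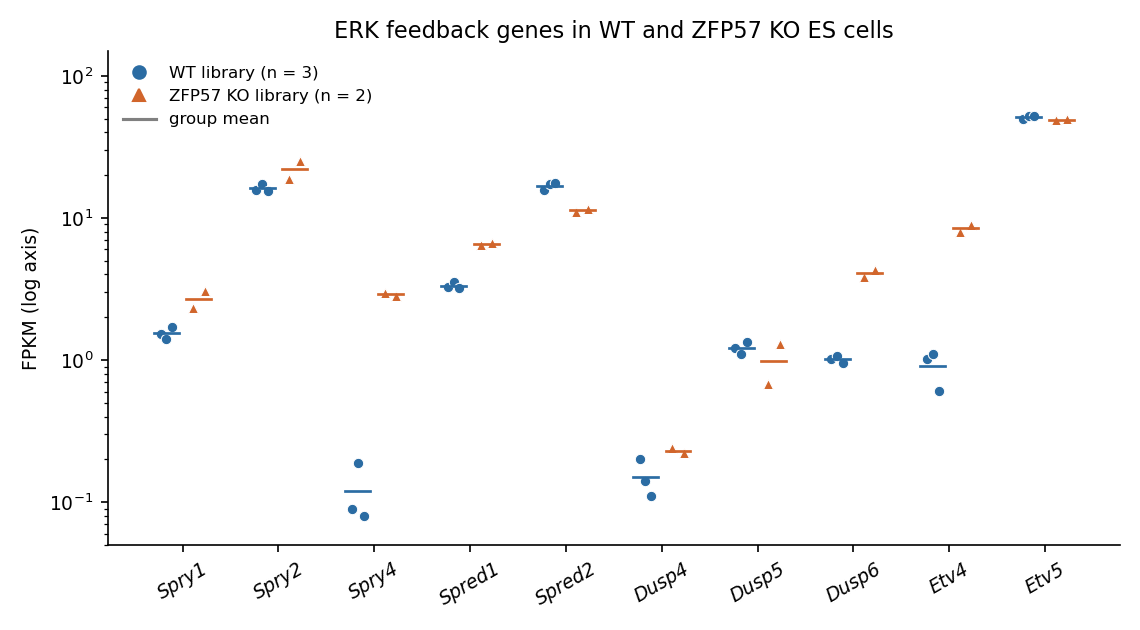
FPKM of the 10 genes (log axis) in each WT (blue circles, n = 3) and ZFP57 KO (orange triangles, n = 2) library, with group means as lines. *Spry4*, *Dusp6* and *Etv4* are near or below 1 FPKM in WT cells and between 2.82 and 8.97 FPKM in KO cells, while *Etv5* stays between 48.5 and 52.3 FPKM.

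The Sprouty genes encode cytoplasmic inhibitors of receptor tyrosine kinase signalling and were all higher in KO cells, by very different amounts. *Spry4* (chromosome 18, 38586247 to 38601347, minus strand) had 0.09, 0.19 and 0.08 FPKM in the 3 WT samples against 2.97 and 2.82 FPKM in the KO samples. It was thus close to silent in every WT library and clearly transcribed in both KO libraries. On its transcript of 4687 bp, the WT values correspond to about 23.3, 52.4 and 19.1 fragments and the KO values to about 728 and 729. The rounding of the table limits such a number to about 1.3 fragments either way. The log2 fold change was 3.80 ± 0.24 (SE) on log2(FPKM + 0.1), a scale that understates changes of low genes, and the means differed 24.1-fold. By log2 fold change it ranked 6 from the highest of the 14612 genes tested.

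*Spry1* (chromosome 3, 37639947 to 37644599, plus strand) was at 1.53, 1.41 and 1.71 FPKM in WT and at 2.32 and 3.04 FPKM in KO cells, with a log2 fold change of 0.74 ± 0.15 (SE). The KO libraries did not overlap the WT libraries, but they differed from each other more than the WT libraries did. *Spry2* (chromosome 14, 105891947 to 105896819, minus strand), the most abundant Sprouty gene in both groups, was at 15.7, 17.4 and 15.6 FPKM in WT and at 18.8 and 25.2 FPKM in KO cells. Its log2 fold change of 0.42 ± 0.12 (SE) rests largely on the second KO library. Without that library it was 0.21 and without the first KO library 0.63, and leaving out the second KO library or any WT library put *Spry2* short of the threshold. Among the Sprouty genes, the log2 fold change was largest for *Spry4*, the lowest in WT FPKM, and smallest for *Spry2*, the highest, whereas the difference in mean FPKM was largest for *Spry2*.

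SPRED1 and SPRED2 are membrane-associated relatives of Sprouty that act on RAS and RAF, SPRED1 by bringing the RAS inactivator neurofibromin to the membrane. Their genes differed from WT in opposite directions. *Spred1* (chromosome 2, 117121071 to 117182279, plus strand) was at 3.28, 3.53 and 3.19 FPKM in WT and at 6.47 and 6.63 FPKM in KO cells, a log2 fold change of 0.95 ± 0.07 (SE). Its libraries were tight within each group, and the KO mean was 1.97 times the WT mean. *Spred2* (chromosome 11, 19924442 to 20024026, plus strand) was at 15.8, 17.3 and 17.6 FPKM in WT and at 11.1 and 11.5 FPKM in KO cells, a log2 fold change of -0.57 ± 0.06 (SE). Relative to the median of chromosome 11, the log2 fold change of *Spred2* was -0.10, and a fit with the chromosome medians subtracted no longer put it past the threshold. The levels of *Spred1* and *Spred2* were therefore closer to each other in KO cells than in WT cells.

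The 3 phosphatase genes differed from each other. *Dusp6* (chromosome 10, 99263231 to 99267489), which encodes a cytoplasmic phosphatase of ERK, was at 1.02, 1.06 and 0.95 FPKM in WT and at 3.81 and 4.33 FPKM in KO cells. This is a log2 fold change of 1.91 ± 0.11 (SE), with the KO mean 4.03 times the WT mean and a wide gap between the groups. The non-coding gene *Gm34921* overlaps *Dusp6*, and whether the fragments were counted by strand is not given in the sources used here. *Dusp5* (chromosome 19, 53529145 to 53541809), the gene of a nuclear ERK phosphatase, was at 1.21, 1.10 and 1.34 FPKM in WT and at 0.68 and 1.29 FPKM in KO cells. The second KO library lay within the WT range and the first lay below it, so the log2 fold change of -0.33 ± 0.25 (SE) has no steady direction. It was -0.75 for the first KO library and 0.08 for the second, each against the WT mean.

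*Dusp4* (chromosome 8, 34807610 to 34819894), which encodes another nuclear phosphatase of ERK and related kinases, was at 0.20, 0.14 and 0.11 FPKM in WT and at 0.24 and 0.22 FPKM in KO cells. These levels correspond to about 13.6 to 26.8 fragments per WT library and 29.4 to 30.5 per KO library on 2427 bp. The KO libraries were above all WT libraries, but the log2 fold change of 0.42 ± 0.23 (SE) was not past the threshold. With a pseudocount of 1 FPKM it shrank to 0.10. *Spry4* and *Dusp4*, the lowest genes of the set, were therefore alike in WT cells (overlapping ranges) and far apart in KO cells.

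ETV4 and ETV5 are closely related factors, yet their genes were expressed very differently. *Etv4* (chromosome 11, 101769747 to 101785310, minus strand) was at 1.02, 1.10 and 0.61 FPKM in WT and at 7.94 and 8.97 FPKM in KO cells. The means differed 9.29-fold, with a log2 fold change of 3.12 ± 0.23 (SE). It lies on chromosome 11, where most genes were lower, and relative to the chromosome's median its log2 fold change was 3.59. *Etv5* (chromosome 16, 22381313 to 22439570, minus strand) was at 49.8, 52.2 and 52.3 FPKM in WT and at 48.5 and 49.3 FPKM in KO cells. Both KO libraries were just below the WT libraries, with a log2 fold change of -0.07 ± 0.04 (SE) that was not past the threshold and a KO mean 0.950 times the WT mean. *Etv5* was the most abundant of the 10 genes in every library.

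**Figure D2:**
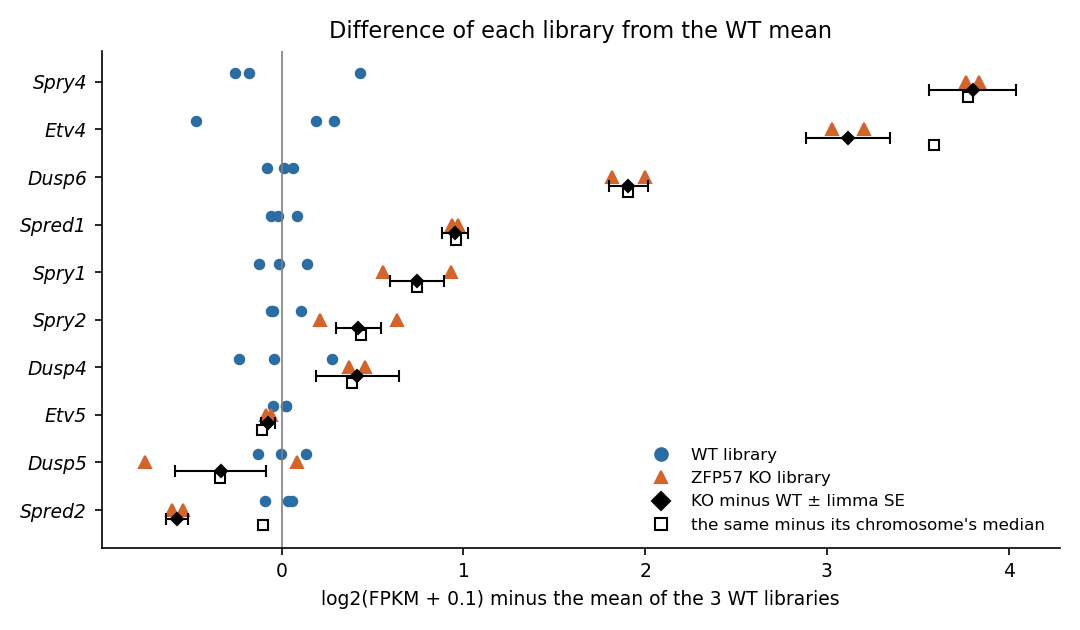
Each library's difference from the WT mean on log2(FPKM + 0.1) for WT (blue circles) and KO (orange triangles) libraries, with the fitted KO minus WT difference ± SE (black diamonds) and the same after subtraction of its chromosome's median (open squares). The squares part from the diamonds mainly for the chromosome 11 genes, where *Etv4* moves from 3.12 to 3.59 and *Spred2* from -0.57 to -0.10.

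FPKM is scaled for length, so levels can be ordered across genes. In WT cells the order of mean FPKM was *Etv5*, *Spred2*, *Spry2*, *Spred1*, *Spry1*, *Dusp5*, *Dusp6*, *Etv4*, *Dusp4* and *Spry4*, and the ranges of the libraries overlapped between *Spred2* and *Spry2*, *Dusp6* and *Etv4*, and *Dusp4* and *Spry4*. In KO cells it was *Etv5*, *Spry2*, *Spred2*, *Etv4*, *Spred1*, *Dusp6*, *Spry4*, *Spry1*, *Dusp5* and *Dusp4*, with overlap between *Spry4* and *Spry1* only. *Etv4* moved from rank 8 to rank 4 and *Spry4* from rank 10 to rank 7. The summed level of the 10 genes was 89.6, 95.5 and 93.4 FPKM in WT and 102.7 and 113.3 FPKM in KO libraries. *Etv5* alone made up 54.7 to 56.0% of that sum in WT and 43.5 to 47.2% in KO libraries. Without *Etv5*, the sum of the other genes was 39.8 to 43.3 FPKM in WT and 54.3 to 64.0 FPKM in KO libraries.

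Binding of ZFP57 was the readout that the choice of these genes did not use. The authors deposited 1423 ZFP57 peaks for the C57BL/6J lines as positions in mm10, called in at least 2 of 3 WT replicates and without scores. None of the 10 genes had a peak within 20 kb of its span, beside 4.25% of the 24288 genes that could be placed, and none had a peak inside it. Within 50 kb the count was 1, beside 8.11% of placed genes. For *Spry4* the nearest peak was 359054 bp away, for *Etv4* 456468 bp and for *Dusp6* 164398 bp. Those of *Spry1* and *Spry2* lay 391464 and 453757 bp away, that of *Spred2* 157753 bp, that of *Etv5* 99572 bp, that of *Dusp4* 1034184 bp and that of *Spred1* 5037478 bp. Weaker binding under the authors' threshold was not analysed here.

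The nearest peak of all was that of *Dusp5*, at chr19:53588902-53589182, 47093 bp from the gene and at the pseudogene *Nutf2-ps1*. It is printed on the plus strand because it is the closest ZFP57 site to any of these genes, and capitals mark its 2 copies of TGCCGC, both on the other strand.
Dusp5 nearest peak: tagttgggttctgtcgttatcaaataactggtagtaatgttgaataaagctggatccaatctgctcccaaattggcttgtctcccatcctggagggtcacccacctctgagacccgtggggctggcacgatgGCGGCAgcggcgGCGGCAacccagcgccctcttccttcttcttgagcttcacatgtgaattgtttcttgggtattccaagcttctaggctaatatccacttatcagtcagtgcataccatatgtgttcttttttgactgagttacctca

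Of this interval of 281 bp, 52.7% is soft-masked as repeat in the reference. It was not among the peaks listed for the C57BL/6J X 129aa hybrid lines. *Dusp5* itself was the gene whose KO libraries overlapped the WT libraries.

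The tested genes within 1 Mb of each member were compared with it. *Spry4* had 38 tested genes within 1 Mb, of which 29 were past the threshold as higher and none as lower, with a median log2 fold change of 0.48. Among them 25 belong to the protocadherin cluster by name or by ending where those genes end. Many of these share their last exons and so their fragments, and all 25 were higher (median 0.51). Of the other 13 neighbours, 4 were higher (median 0.14). The highest neighbour, *Pcdhga8*, had a log2 fold change of 0.57, far under the 3.80 of *Spry4*.

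*Etv4* stood against its surroundings, since 48 of its 66 tested neighbours were lower and 2 higher, with a median log2 fold change of -0.66. The highest of them, *Ptrf*, had a log2 fold change of 0.78 against 3.12 for *Etv4*. *Spred2* moved with its own, with 6 of 7 neighbours lower, a median of -0.47 and 4 neighbours above it. Over the whole of chromosome 11, which holds both genes, 825 of 1224 tested genes were lower, with a median of -0.47. *Dusp6* had 4 tested neighbours (2 higher, none lower) with a median of 0.31, and the highest, *Galnt4*, was at 0.39 on the log2 scale. Around *Spred1*, 2 of 4 neighbours were lower and none higher, with a median of -0.38. *Mir674*, 2.8 kb away, had a larger log2 fold change than *Spred1* (1.54) but was not past the threshold. *Spry1* exceeded all 8 of its neighbours (1 higher, median -0.03) and *Spry2* all 3 of its own (none past the threshold, median 0.07). *Etv5* sat in the middle of its 22 neighbours (3 higher, 8 lower, median -0.07). *Dusp4* had 8 neighbours (2 higher, 1 lower, median 0.02), of which *Ppp1r3b* at 0.94 exceeded it. *Dusp5* had 12 (1 higher, 1 lower, median 0.01), of which 11 were above it. The higher one was *Nutf2-ps1*, the pseudogene at the nearest peak, with a log2 fold change of 0.15, whose fragments could also come from its parent gene.

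**Figure D3:**
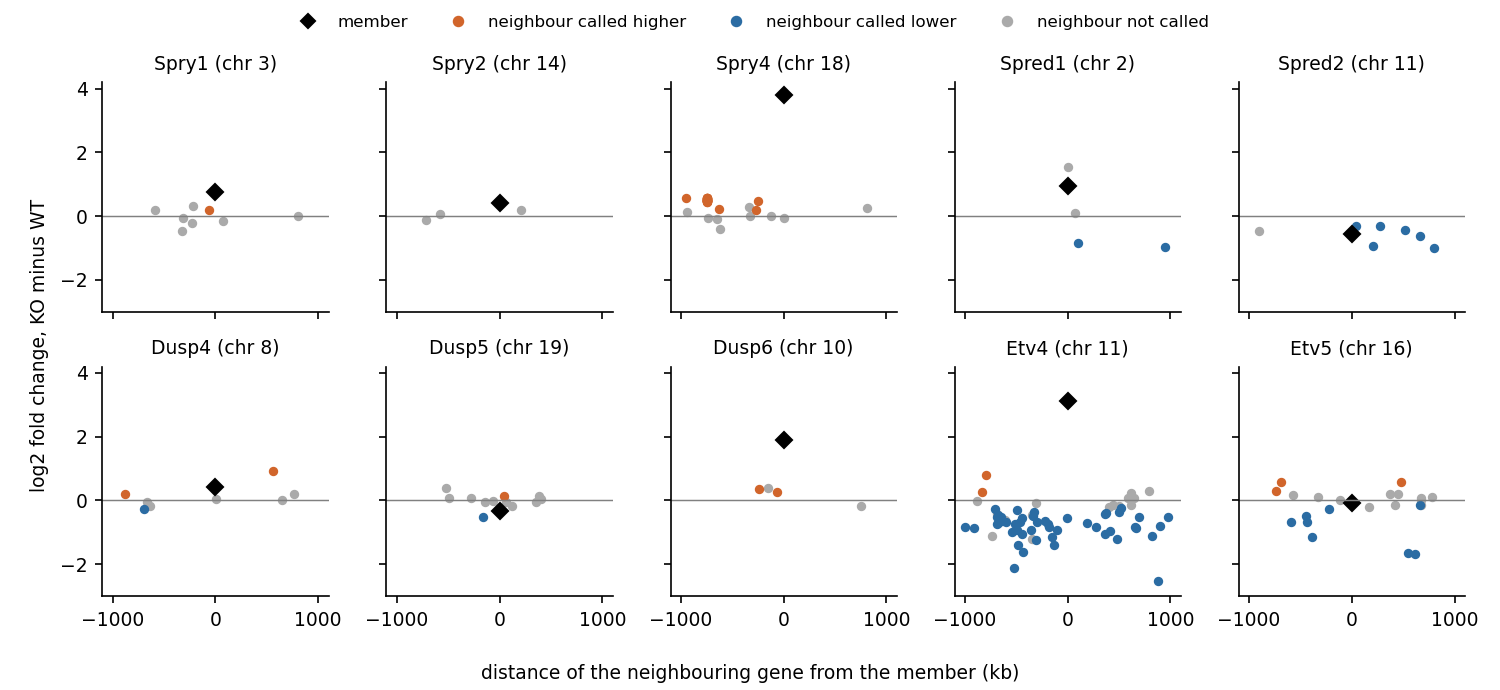
Log2 fold change (KO minus WT, y axis) of each gene (black diamond) and of the tested genes within 1 Mb (circles, orange if past the threshold as higher, blue if lower, grey if neither) against distance in kb (x axis). *Spry4*, *Dusp6* and *Etv4* stand above all their neighbours, whereas *Spred2* lies among neighbours that were lower.

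The rest of the pathway was examined with lists of genes that were, like the 10 genes, written with earlier results of these data known. Their counts stand beside 41.1% of all tested genes past the threshold, 18.8% as higher and 22.3% as lower. Of 24 genes from the FGF receptors to the kinases downstream of ERK, 8 were higher and 5 lower in KO cells (13 of 24, or 54.2%) and 11 were not past the threshold, with a median log2 fold change of -0.01. The adaptor gene *Shc1* was higher (12.8, 13.3 and 12.9 FPKM in WT, 20.2 and 21.2 FPKM in KO, log2 fold change 0.67 ± 0.04 SE, limma's adjusted p = 4.1e-04), as were the kinase gene *Rps6ka2* (0.55, adjusted p = 0.0027) and the receptor gene *Fgfr1* (0.40, adjusted p = 0.0046). *Ksr1*, which encodes a scaffold of RAF, MEK and ERK on chromosome 11, was lower (5.24, 4.90 and 5.68 FPKM in WT, 2.16 and 2.41 FPKM in KO, log2 fold change -1.17 ± 0.09 SE, adjusted p = 5.7e-04). It remained lower relative to its chromosome, at -0.70. The MEK gene *Map2k1* was lower by a small amount (-0.26, adjusted p = 0.0065), and the adaptor gene *Grb2*, on chromosome 11, had a log2 fold change of -0.53 (adjusted p = 8.4e-04) that came to -0.06 relative to the chromosome's median.

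Of 14 other attenuators, 12 were tested, and 5 were higher and 1 lower (50.0%, beside 41.1% of all tested genes), with a median log2 fold change of 0.12. *Dusp1*, a nuclear phosphatase gene that growth factors and stress induce, was higher (4.95, 5.32 and 5.05 FPKM in WT, 8.94 and 9.53 FPKM in KO, log2 fold change 0.84 ± 0.06 SE, limma's adjusted p = 4.9e-04). *Il17rd*, which encodes the FGF antagonist SEF, was also higher (0.49, adjusted p = 0.0017). *Lztr1*, an adaptor for RAS degradation, was near the threshold (0.25, adjusted p = 0.039) and missed it whichever of the 5 libraries was left out. *Nf1*, the neurofibromin gene on chromosome 11, had a log2 fold change of -0.46 (adjusted p = 0.0012), which became 0.0104 relative to its chromosome. *Spred3*, the remaining Spred gene, was higher (0.38, 0.40 and 0.38 FPKM in WT, 0.81 and 1.02 FPKM in KO, log2 fold change 1.05 ± 0.16 SE, limma's adjusted p = 0.0036). The remaining Sprouty gene, *Spry3*, was under the minimum of 0.1 FPKM and was not tested.

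Of 16 other genes known to respond to ERK, 12 were tested, 6 of them were higher (50.0%, beside 18.8% of all tested genes) and none lower, with a median log2 fold change of 0.36. *Etv1*, the remaining PEA3 factor gene, was higher (1.33, 1.99 and 1.47 FPKM in WT, 4.76 and 4.92 FPKM in KO, log2 fold change 1.56 ± 0.17 SE, limma's adjusted p = 0.0012). *Plaur*, the urokinase receptor gene, had a log2 fold change of 1.01 (adjusted p = 0.0034). *Myc* had a log2 fold change of 1.15 (adjusted p = 0.0079), and without the second KO library 1.00 (adjusted p = 0.059, with the spread taken from the WT libraries). The immediate early genes were uneven. *Ier2* was higher (10.2, 10.8 and 10.6 FPKM in WT, 13.2 and 14.2 FPKM in KO, log2 fold change 0.37 ± 0.05 SE, limma's adjusted p = 0.0030), while *Ier3* (means of 1.18 FPKM in WT and 1.14 FPKM in KO cells), *Egr1* (0.107 and 0.11 FPKM) and *Fos* (0.193 and 0.22 FPKM) were not past the threshold. *Egr2*, *Egr3*, *Fosb* and *Fosl1* were too low to be tested. For comparison, 9 targets of STAT3, the factor activated by LIF, had 7 genes higher and 1 lower, and 11 tested targets of β-catenin, which the GSK3 inhibitor stabilises, had 3 higher and 4 lower, or 4 higher and 1 lower once the chromosome medians were subtracted.

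**Figure D4:**
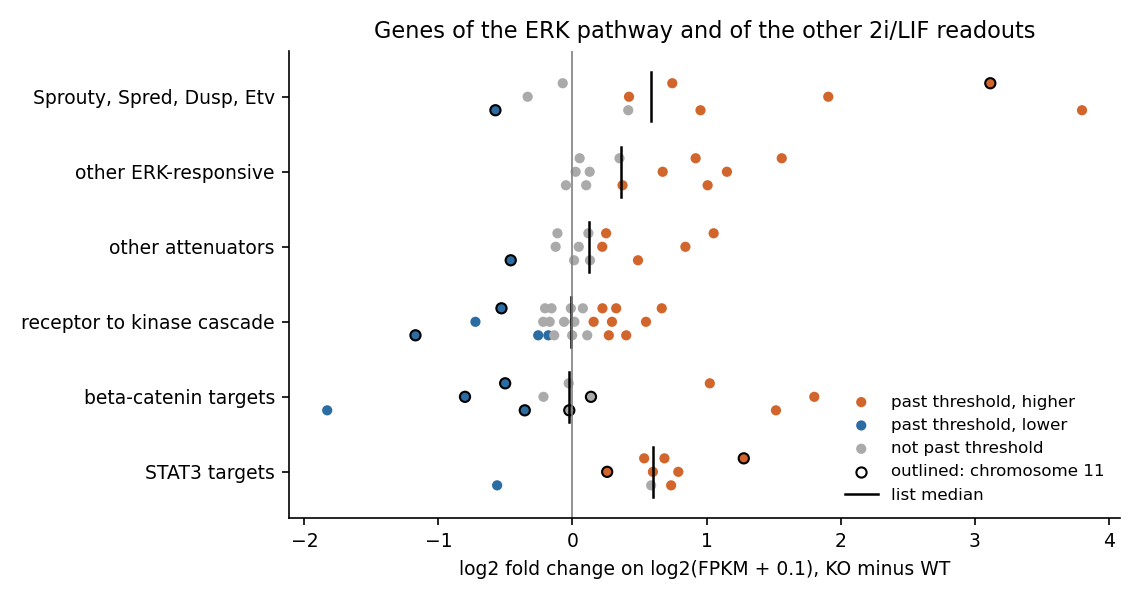
Log2 fold change (KO minus WT, x axis) of each tested gene by list, coloured by direction where past the threshold and grey where not, with chromosome 11 genes outlined and list medians as black lines. The medians are 0.58 for the Sprouty, Spred, Dusp and Etv genes, 0.36 for the other ERK-responsive genes, 0.12 for the other attenuators, -0.01 for the cascade, -0.03 for β-catenin targets (0.12 with chromosome medians subtracted) and 0.60 for STAT3 targets. The first set was chosen on these values, and the other lists were written with earlier results of these data known.

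Markers of other cell types were read beside these values, and their counts too stand beside 18.8% of all tested genes higher and 22.3% lower. The 8 trophoblast markers summed to 4.31 to 5.60 FPKM in WT and 10.4 to 12.5 FPKM in KO libraries, with 3 of 6 tested genes higher and none lower. Most of that sum was *Tead4*, at 4.27, 3.53 and 3.32 FPKM in WT and 6.64 and 8.32 FPKM in KO libraries, which was higher (limma's adjusted p = 0.0028) together with *Eomes* (means of 0.497 and 2.27 FPKM, adjusted p = 8.0e-04) and *Tfap2a* (0.173 and 0.81 FPKM, adjusted p = 0.0015). Of the 8 markers, 6 were under 1 FPKM in every library, and *Elf5* and *Hand1* were too low to be tested. The 8 primitive endoderm markers summed to 0.89 to 1.08 FPKM in WT and 1.29 to 1.72 FPKM in KO libraries, all 8 under 1 FPKM in every library. Of 5 tested, *Sox7* was higher (0.09, 0.15 and 0.11 FPKM in WT, 0.90 and 0.48 FPKM in KO, limma's adjusted p = 0.0041) and none was lower, and *Gata6*, *Sox17* and *Foxa2* were too low to be tested. The 8 fibroblast markers summed to 0.53 to 0.94 FPKM over all libraries, none of the 2 tested was past the threshold, and *Col3a1*, *Dcn* and *Lum* were at 0 in all 5. The part of the trophoblast and endoderm markers in the levels of *Spry4*, *Dusp6* and *Etv4* was not tested.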

How the data were processed

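Total RNA, depleted of ribosomal RNA, was sequenced with paired reads of 150 bp from a strand-marking kit in 3 WT and 2 KO samples (26 samples in the series; the other libraries were not used here, apart from the ZFP57 peak list). The authors deposited FPKM per gene with 2 decimals; the annotation, the gene lengths and the counting were not given in the sources used here. Per the labels the build was mm10, and the submitters' processing notes name FastQC 0.11.5, Trim Galore 0.2.7, BWA 0.6.2, Picard, MACS2 2.1.0 and STAR 2.5.2. The authors deposited ZFP57 peaks as positions only, without a score.

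FPKM values were analysed as log2(FPKM + 0.1) with limma 3.58.1 in R 4.3.3 (eBayes with trend), for genes averaging 0.1 FPKM or more, with Benjamini-Hochberg adjustment over 14612 genes and a threshold of 0.05. The procedure was tested on simulated data. The simulated libraries had independent noise and no shift of a whole chromosome, so they vouch for none of the calls here. An exact permutation test of 3 against 2 libraries has 10 splits and cannot go below 0.1, so none was run. Depth was inferred from FPKM steps of microRNA genes, of whose values 90.9 to 97.5% were whole fragment numbers within 0.15 (30% by chance). Fragment numbers per gene used the longest curated RefSeq transcript. Genes were placed on GRCm38.p6 by symbol or synonym.

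The 10 genes, the pathway lists and the marker lists were chosen with earlier results of these data known. Besides the 10 genes and *Zfp57*, up to 3 genes past the threshold in each direction per pathway list, averaging 1 FPKM or more, were named by the size of the log2 fold change. *Mir674*, *Pcdhga8*, *Ptrf*, *Galnt4*, *Gm34921*, *Egr1*, *Fos*, *Ier2*, *Ier3*, *Spred3*, *Ppp1r3b*, *Nutf2-ps1* and the marker and untested genes named were chosen after their values were seen. Alternatives covered pseudocounts, filters, scaling, chromosome medians, the variance model, a replicate block, single libraries, thresholds and peak windows.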

Additional observations from a re-analysis of the deposited data

How the results depend on the processing

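Of all genes, 3291 passed an adjusted p of 0.01, 1172 the threshold together with an absolute log2 fold change of 1 or more, and 3012 (1379 higher, 1633 lower) the fit with a replicate block. WT and KO samples share only 2 replicate numbers, and same-numbered libraries did not deviate together (r = -0.07 and -0.04), so the block was not taken as a pairing. It left 7 of the 10 Sprouty, Spred, Dusp and Etv genes past the threshold, 7 cascade genes in place of 13 (*Map2k1* at limma's adjusted p = 0.062), 4 other attenuators in place of 6 (*Lztr1* at 0.15), 5 other ERK-responsive genes in place of 6, 6 STAT3 targets in place of 8 and 5 β-catenin targets in place of 7. An absolute log2 fold change of 1 or more was reached by 3 of the 10 genes, 1 cascade gene, 1 other attenuator, 3 other ERK-responsive genes, 4 β-catenin targets and 1 STAT3 target. A window of 50 kb gave 1 gene with a peak in place of 0.

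Leaving out each library in turn gave 4146 to 4831 genes and 6 to 7 of the 10. Without a KO library the remaining one is assumed to vary like the WT libraries. *Dusp5* was past the threshold as lower (-0.75) without the second KO library, and without the first its log2 fold change was 0.08. *Spry2* was not past the threshold of 0.05 in 6 of the alternatives (no filter, eBayes without trend, and without the second KO library or any WT library). With a pseudocount of 0.01 or 1, *Spry4* had a log2 fold change of 4.58 or 1.80, and with 1 that of *Etv4* was 2.32 and that of *Dusp6* 1.33. *Spry1* had 0.93 without the first and 0.56 without the second KO library. With chromosome medians subtracted, *Nf1* turned from -0.46 to 0.0104. *Spred2* (-0.10), *Grb2* (-0.06), *Tcf7* (-0.03), *Notum* (-0.33) and *Lztr1* (0.22) were then no longer past the threshold. Of the other attenuators, 4 remained past it. Scaling and filters moved the median of all genes by less than 0.1.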

Other observations

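Targets of the other signals of the medium were measured in the same libraries. Of 9 STAT3 targets, *Socs3*, the feedback inhibitor of LIF signalling, was at 6.15, 5.63 and 5.56 FPKM in WT and at 13.5 and 14.9 FPKM in KO cells (log2 fold change 1.28 ± 0.07 SE, limma's adjusted p = 3.3e-04). It lies on chromosome 11 and stood 1.75 above that chromosome's median. *Gbx2* (0.79, limma's adjusted p = 0.0031) and *Klf4* (0.74, adjusted p = 0.0025) were higher too, and *Pim1* was lower (-0.56, adjusted p = 0.0012). Of 11 tested β-catenin targets, *Cdx1* rose from 3.92, 3.63 and 4.37 FPKM in WT to 12.6 and 15.8 FPKM in KO cells (1.80 ± 0.12 SE, limma's adjusted p = 3.9e-04) and *Sp5* rose by 1.52 on the log2 scale (adjusted p = 0.0017). *Lef1* fell from 5.79, 7.91 and 8.21 FPKM to 2.60 and 1.47 FPKM (-1.83 ± 0.25 SE, limma's adjusted p = 0.0027). *Tcf7* (-0.50, adjusted p = 0.0014) and *Notum* (-0.80, adjusted p = 0.0058) lie on chromosome 11 and were not past the threshold relative to its median. Of 13 naive pluripotency genes 7 were higher and 3 lower, and of 9 tested formative genes 1 was higher and 4 were lower, beside 18.8% of all tested genes higher and 22.3% lower. *Klf4* and *Tfcp2l1* are in both the STAT3 and the naive list, and *Lef1* is in both the β-catenin and the formative list.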
